A study of Mus musculus with 18 samples.

Results

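The RNAs of 8 genes of the oxygen-sensing pathway were followed through differentiation and Setd2 depletion in mouse muscle cells. They are the alpha subunits Epas1, Hif1a and Hif3a of the hypoxia-inducible factors (HIF), their shared partner Arnt, the oxygen-sensing hydroxylases Egln1 and Egln3, the ubiquitin ligase subunit Vhl, and the HIF target Vegfa. The genes were taken by name out of 47311 in the annotated tables, and they were chosen with their levels in these libraries already known, so their fold changes and adjusted p values describe these libraries and are no independent test. The cells were C2C12, a mouse skeletal muscle line that grows as single-nucleus myoblasts and can be made to fuse into myotubes. Setd2 encodes a histone methyltransferase, the enzyme that places the trimethyl mark on H3 lysine 36 along genes being transcribed. PolyA RNA of 18 libraries was sequenced, 3 labelled as biological replicates in each of 6 groups. The groups were myotubes given Setd2 siRNA 1, myotubes given Setd2 siRNA 2, myotubes given the control siRNA, myoblasts given siRNA 1, myoblasts given siRNA 2, and myoblasts given the control siRNA. All groups share 1 treatment, since the RNA of each was taken straight after mechanical stretching, and no unstretched cells were analysed here. No source used here names the oxygen level of the cultures, the days of differentiation or the siRNA sequences. Nothing says whether the replicates came from separate cultures, so p values measure the spread between these libraries, which may be technical.

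A HIF is a pair of proteins, an oxygen-labile alpha subunit and the stable partner encoded by Arnt. In oxygen, the prolyl hydroxylases encoded by the Egln genes mark the alpha subunit, VHL recognises the mark, and the subunit is ubiquitinated and destroyed. When oxygen is short the alpha subunit persists, enters the nucleus with ARNT and switches on genes of glycolysis, matrix, red cell supply and vessel growth, Vegfa and Egln3 among them. Because that control acts on protein, the RNA levels below say how much message each part of the pathway had and nothing of HIF protein or its activity.

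The libraries held 43.5 to 66.6 megareads of estimated counts. Setd2, the targeted gene, averaged 45.8 ± 11.2 CPM with siRNA 1 and 36.4 ± 2.28 CPM with siRNA 2, against 105.8 ± 3.73 CPM in control myotubes (SD, n = 3 each; CPM is counts per megaread, scaled between libraries). In myoblasts it averaged 39.2 ± 4.38 CPM with siRNA 1 and 42.4 ± 3.15 CPM with siRNA 2, against 107.9 ± 9.50 CPM in controls, and each depleted library was below each control of its stage. The 6 myotube markers (Myog, Myh3, Ckm, Acta1, Mymk and Tnnt3) summed to 13100 to 16500 CPM in myotube libraries, against 31.1 to 131.0 CPM in myoblast libraries. Within myotubes the sum was 15600 to 15800 CPM with siRNA 1 and 14600 to 16500 CPM with siRNA 2, against 13100 to 14300 CPM in controls. The 5 myoblast markers (Myod1, Myf5, Pax7, Des and Cdh15) summed to 3890 to 4470 CPM in myotube libraries, against 1170 to 1790 CPM in myoblast libraries. The sum of that list therefore does not set the stages apart in the labelled direction. A sum is weighted to its most abundant genes, and the 5 genes are not given singly here. Within myoblasts the sum of these 5 was 1520 to 1610 CPM with siRNA 1 and 1650 to 1790 CPM with siRNA 2, against 1170 to 1380 CPM in controls. Depleted and control libraries of a stage thus differed in marker sums, and the part of this in the results below was not tested. Of other cell types, 5 fibroblast markers summed to 1020 to 1800 CPM over all libraries, 4 macrophage markers to at most 2.17, 3 Schwann cell markers to at most 1.68 and 3 adipocyte markers to at most 0.035 CPM, with the macrophage gene Adgre1 at 0 throughout. The table's name for the third myoblast library of siRNA 2 says SETD3 where its label says SETD2, and the third myotube control is named NT_2 where the other controls are NT_1. Library names start with C13 or D1 in myotubes and C14 or D2 in myoblasts, with both starts in every group. What the starts mean is not given, but libraries that share one deviated together, so values within each are printed beside depletion results. No start occurs in both stages, so a level difference between myotubes and myoblasts cannot be told apart from one between starts. Sequence of ribosomal RNA type took 3.56% to 3.91% of the counts in myoblasts with siRNA 1, and 1.46% to 4.1% in those with siRNA 2, against 1.2% to 1.36% in control myoblasts. In myotubes it took 1.5% to 2.88% with siRNA 1 and 2.26% to 2.99% with siRNA 2, against 1.27% to 2.3% in controls. Its part in the results of either stage was not tested.

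HIF binds short DNA elements with the core letters ACGTG or GCGTG, and these cores were searched for on both strands in the stretch from 250 bases before to 50 after the start site of each gene that has a promoter window in RefSeq's table (GRCm38.p6). Windows were found for 7 of the 8 genes, with 2 for Vegfa and none for Epas1. ACGTG lay in 19.6%, GCGTG in 32.4% and either core in 43.8% of all 32851 windows of the table, so a match is a description and not a binding site. A core was found in the windows of Hif1a, Hif3a, Arnt, Egln1 and Egln3 and in 1 of the 2 Vegfa windows, the inner one at chr17:46025114-46025413. The Vhl window and the outer Vegfa window, at chr17:46032328-46032627, held neither core. Sequence outside the windows was not searched. The stretches below, 1 per gene with a core except for Hif3a, whose RNA was close to absent, are 30 bases read 5′ to 3′ on the gene's strand, with the core in capitals; the alpha subunit, its partner, both hydroxylases and the target can thus be compared.
Hif1a at chr12:73907721-73907750, plus strand: acacagacaagcACGTGagcggggcagctc
Arnt at chr3:95434349-95434378, plus strand: ccatagtttgggGCGTGtcttctgcccagg
Egln1 at chr8:124949305-124949334, minus strand: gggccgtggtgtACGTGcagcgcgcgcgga
Egln3 at chr12:54204086-54204115, minus strand: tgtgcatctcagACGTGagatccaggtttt
Vegfa, inner window, at chr17:46025364-46025393, minus strand: aagccctggagtGCGTGcccacgtcagaga
The first letter of the core stands at position -134 from the Hif1a start site, -29 from that of Arnt, -68 from that of Egln1, -229 from that of Egln3 and -218 from the inner Vegfa start. The Hif1a core overlaps an ACGTG on the opposite strand that begins 1 base earlier, at -135, and the same window holds another ACGTG at -70. The Egln1 window holds a GCGTG at -126 as well, and the inner Vegfa window has an ACGTG on the opposite strand close by.

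On a scale corrected for transcript length (TPM), Vegfa, Egln3 and Hif1a were the most abundant of the 8 RNAs in control cells and the other alpha subunits the least. In control myotubes the order was Vegfa at 178.8 ± 10.5 TPM, Egln3 at 90.7 ± 8.58, Hif1a at 71.0 ± 1.99, Arnt at 55.9 ± 2.30, Egln1 at 37.7 ± 1.41, Vhl at 20.0 ± 2.10 and Epas1 at 0.413 ± 0.0484 TPM (SD, n = 3). In control myoblasts it was Hif1a at 143.5 ± 4.31 TPM, Vegfa at 125.6 ± 4.73, Egln3 at 70.7 ± 1.94, Arnt at 37.6 ± 3.32, Egln1 at 36.9 ± 0.146, Vhl at 17.1 ± 1.56 and Epas1 at 0.0573 ± 0.0216 TPM. Hif1a was thus first in myoblasts and the third in myotubes. Of neighbours in these orders, the libraries overlapped for Arnt and Egln1 in myoblasts and for no other pair. Hif3a came last in both, at no more than 0.00898 TPM in a control library.

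**Figure D1:**
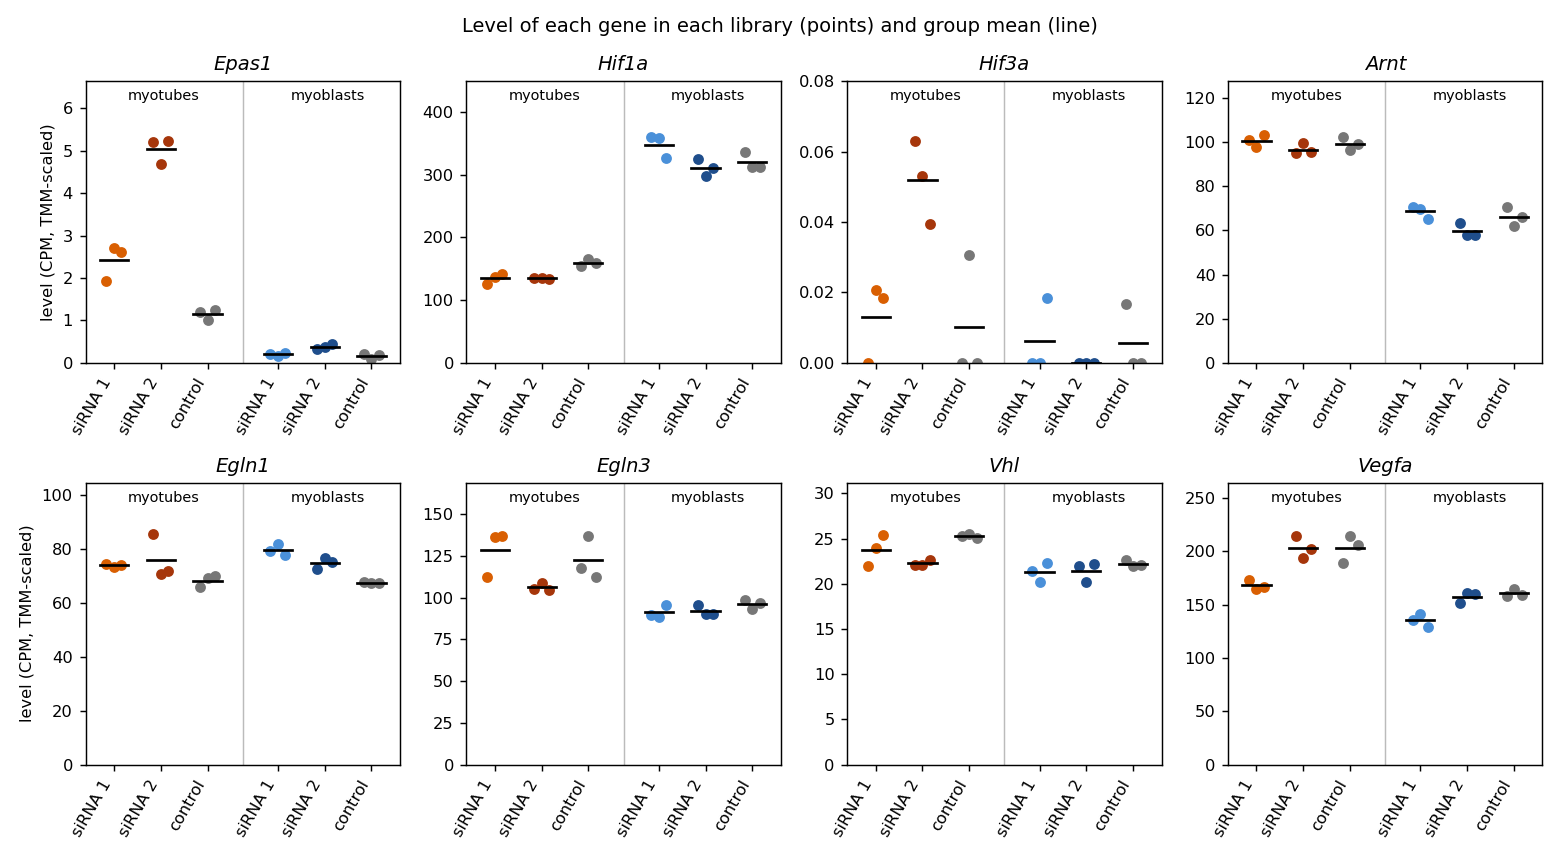
Level of each of the 8 genes in counts per megaread (CPM, vertical axes from 0, scaled separately for each gene), with a point per library and a line at the group mean of 3 libraries, myotubes left and myoblasts right in each panel. Epas1 is highest in siRNA 2 myotubes (mean 5.04 CPM) and close to 0 in myoblasts, Hif1a is higher in every myoblast than in any myotube library, and Vegfa is lower with siRNA 1 than with siRNA 2 or control in both stages.

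In control myotubes against control myoblasts, the comparison of the stages without depletion, 6 of the 7 genes tested passed an adjusted p of 0.05, 5 higher and 1 lower. Of all tested genes 77.5% passed it (39.4% higher, 38.1% lower), and nothing is read from the count. With siRNA 1 against control in myotubes, 3 of 7 passed (1 higher, 2 lower), where 20.5% of all genes did (11.0% higher, 9.57% lower). With siRNA 2 against control in myotubes, 3 of 7 passed (1 higher, 2 lower), where 32.2% of all genes did (15.8% higher, 16.4% lower). In myoblasts, 2 of 7 passed with siRNA 1 (1 higher, 1 lower), where 20.0% of all genes did (11.6% higher, 8.44% lower). With siRNA 2 in myoblasts 2 of 7 passed (both higher), where 33.5% of all genes did (17.1% higher, 16.5% lower). With siRNA 2 against siRNA 1, 3 of 7 passed in myotubes (2 higher, 1 lower), where 17.1% of all genes did (7.76% higher, 9.36% lower), and 3 of 7 in myoblasts (1 higher, 2 lower), where 26.3% did (12.1% higher, 14.3% lower). With both siRNAs alike, Epas1 (higher) and Hif1a (lower) passed in myotubes and Egln1 (higher) in myoblasts. Of all genes, 13.4% did so in myotubes (7.14% higher, 6.27% lower) and 11.9% in myoblasts (7.69% higher, 4.25% lower). Each siRNA was set against the same 3 controls of its stage. Adjusted p values here and below are from edgeR's quasi-likelihood test with Benjamini-Hochberg adjustment over all genes tested.

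**Figure D2:**
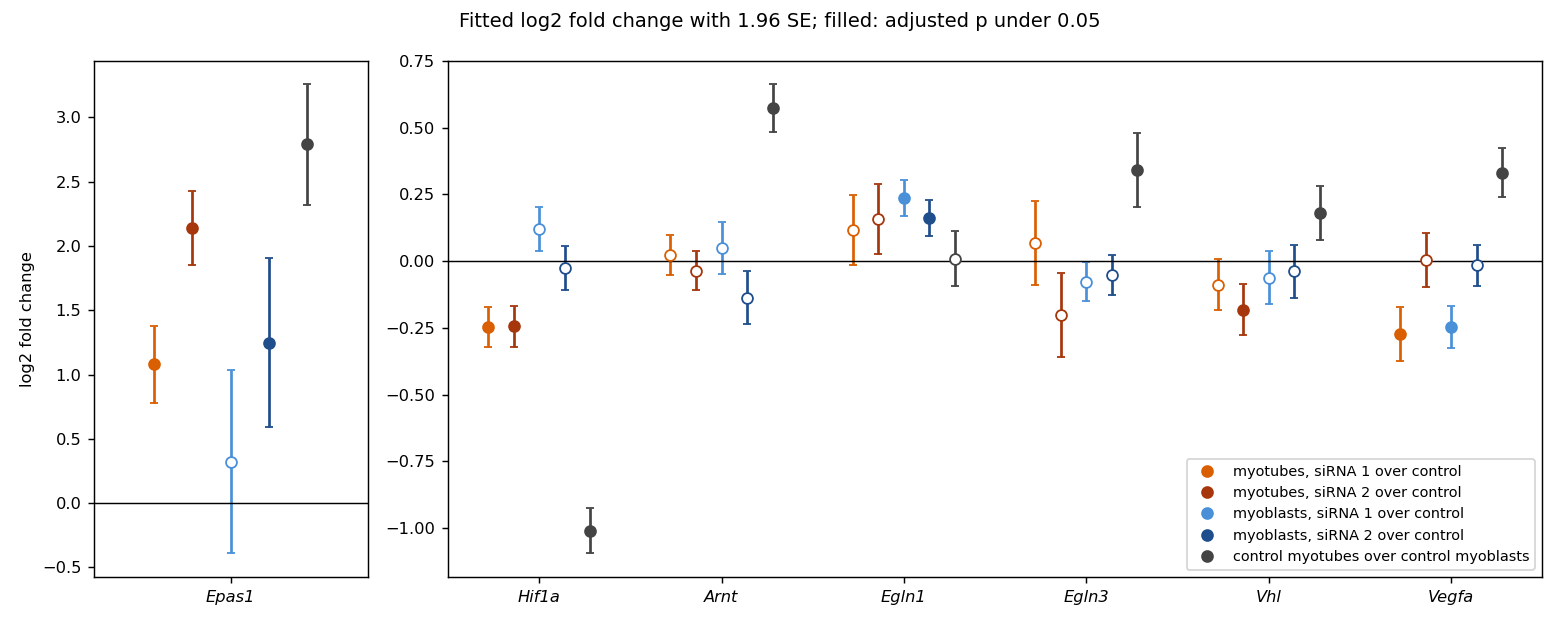
Fitted log2 fold change of 7 genes (vertical axis; Epas1 has an axis of its own) with bars of 1.96 SE, filled where the adjusted p is under 0.05. Epas1 lies at 1.08 and 2.14 in depleted myotubes, Hif1a at -0.25 and -0.24, and Vegfa at -0.27 and -0.25 with siRNA 1 but at 0.00 and -0.02 with siRNA 2 in myotubes and myoblasts.

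Epas1 (ENSMUSG00000024140, chromosome 17, positions 86753700 to 86833410 of mm10) encodes HIF-2 alpha, the alpha subunit best known from endothelium, kidney and, in muscle, slow fibres. It rose on differentiation and rose again in myotubes with each siRNA. Its myotube libraries read 1.94, 2.72 and 2.60 CPM with siRNA 1 and 5.21, 4.68 and 5.23 CPM with siRNA 2, against 1.19, 1.01 and 1.25 CPM in controls. The 3 groups did not overlap, and every siRNA 2 library stood above every siRNA 1 library. The log2 fold change was 1.08 (SE 0.15, adjusted p = 0.000549) with siRNA 1 and 2.14 (SE 0.15, adjusted p = 1.66e-06) with siRNA 2, folds of 2.11 and 4.41. Set directly against siRNA 1, siRNA 2 was 1.06 higher (SE 0.14, adjusted p = 0.00029). Within the C13 libraries the log2 ratio to control was 0.67 with siRNA 1 and 2.10 with siRNA 2, and within D1 it was 1.39 and 2.29; C13 has 1 library of each siRNA.

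In myoblasts Epas1 rested on 5 to 24 counts a library. It read 0.22, 0.17 and 0.22 CPM with siRNA 1 and 0.33, 0.39 and 0.44 CPM with siRNA 2, against 0.20, 0.091 and 0.19 CPM in controls. The siRNA 2 libraries lay above all others, and those of siRNA 1 overlapped the controls. With siRNA 2 the log2 fold change was 1.25 (SE 0.33, adjusted p = 0.0123), with ratios of 0.74 within C14 and 1.54 within D2. That call was lost without the library named SETD3 (1.14, adjusted p = 0.0515) and without the second control (0.97, adjusted p = 0.052). DESeq2 gave it a log2 fold change of 1.26 (SE 0.495) but no adjusted p. With siRNA 1 it was 0.32 (SE 0.36, adjusted p = 0.601). On differentiation Epas1 read 1.19, 1.01 and 1.25 CPM in control myotubes, against 0.20, 0.091 and 0.19 CPM in control myoblasts, with no overlap and a log2 fold change of 2.79 (SE 0.24, adjusted p = 1.33e-09). The effect of depletion on Epas1 in myotubes minus that in myoblasts was 0.83 on the log2 scale (SE 0.32, adjusted p = 0.067). It passed on log2(TPM + 0.1) (0.99, adjusted p = 0.00228, limma) and on log2(TPM + 1) (0.59, adjusted p = 2.78e-05, limma). Epas1 averaged only 0.0573 to 0.134 TPM in the myoblast groups, so the constants added on these scales shrink its myoblast effect. With siRNA 2 that effect was 0.10 on log2(TPM + 1), against 1.25 with counts. The passes on TPM are therefore no firmer evidence of a difference between stages. With counts, the difference between stages also passed without the second myoblast control (1.09, adjusted p = 0.0258) and without the first siRNA 1 myotube library (0.89, adjusted p = 0.0467).

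Epas1 is also an endothelial gene, and 8 endothelial markers were higher in sum in siRNA 2 myotubes, where Epas1 was highest. They added up to 2.17 to 2.77 CPM with siRNA 1 and 3.89 to 4.23 CPM with siRNA 2, against 1.87 to 2.21 CPM in control myotubes. The siRNA 1 range overlapped the controls. In myoblasts they added up to 1.23 to 1.58 CPM with siRNA 1 and 1.2 to 1.46 CPM with siRNA 2, against 1.06 to 1.65 CPM in controls. The part of these markers in the Epas1 result was not tested. Emcn, a sialomucin of endothelium, was at 0 in all 18 libraries, and Pecam1, Cdh5, Tie1, Esam and Robo4, the adhesion and receptor genes that define the cell type, were under 1 CPM in every library. Of these Cdh5, the endothelial cadherin, was at 0.257 to 0.425 CPM with siRNA 2, above the 0.0778 to 0.184 CPM of control myotubes, and at 0.0582 to 0.165 CPM with siRNA 1. Tek and Egfl7, named after their values were seen, carried most of the sum: Tek averaged 1.09 ± 0.288 CPM with siRNA 1 and 1.88 ± 0.271 CPM with siRNA 2, against 0.835 ± 0.0672 CPM in control myotubes, and Egfl7 averaged 1.13 ± 0.117 and 1.67 ± 0.244 CPM with siRNA 1 and siRNA 2, against 0.974 ± 0.198 CPM. Tek was also higher in control myotubes than in control myoblasts, at 0.835 ± 0.0672 against 0.0885 ± 0.0482 CPM. In RNA from whole cultures, a change in the number of cells of a kind and a change in RNA per cell cannot be told apart.

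Hif1a (ENSMUSG00000021109, chromosome 12, positions 73901375 to 73947530) encodes HIF-1 alpha, the subunit that drives glycolytic genes in most cells. It fell on differentiation and fell in myotubes with each siRNA. In myotubes it read 125.8, 137.0 and 141.0 CPM with siRNA 1 and 134.7, 135.6 and 133.6 CPM with siRNA 2, against 154.3, 166.4 and 158.6 CPM in controls. All 6 depleted libraries lay below all 3 controls, while both siRNA groups overlapped and had the same mean of 134.6 CPM. On the log2 scale siRNA 1 gave -0.25 (adjusted p = 0.00102, SE 0.04) and siRNA 2 gave -0.24 (adjusted p = 0.000533, SE 0.04), and their difference was 0.00 (1.96 SE interval -0.07 to 0.08). Within C13 the ratio was -0.31 with siRNA 1 and -0.22 with siRNA 2, and within D1 it was -0.26 and -0.31.

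In myoblasts Hif1a read 359.7, 358.7 and 326.2 CPM with siRNA 1 and 324.8, 298.4 and 311.2 CPM with siRNA 2, against 336.2, 312.1 and 312.7 CPM in controls. Each siRNA group overlapped the controls, and the fitted log2 value was 0.12 for siRNA 1 (adjusted p = 0.0661, SE 0.04) and -0.03 for siRNA 2 (adjusted p = 0.675, SE 0.04). With the start of the library name as a term the siRNA 1 value was 0.09 and passed (adjusted p = 0.00351), as it did with the replicate block (0.12, adjusted p = 0.011). Between the siRNAs, siRNA 2 was lower than siRNA 1, with a log2 difference of -0.15 (SE 0.04, adjusted p = 0.0218), a call that was lost without the library named SETD3 (adjusted p = 0.0638) and on leaving out any of 3 other libraries (adjusted p up to 0.0947). The effect of depletion in myotubes minus that in myoblasts was -0.29 (SE 0.05, adjusted p = 0.00048), and Hif1a was the only 1 of the 7 genes to pass this test of the difference itself, which 23.4% of all genes passed (10.6% with a value above 0 and 12.8% below). On differentiation, control myotubes read 154.3, 166.4 and 158.6 CPM, against 336.2, 312.1 and 312.7 CPM in control myoblasts, a log2 fold change of -1.01 (SE 0.04, adjusted p = 2.37e-14). An antisense RNA, Gm15283, overlaps Hif1a and stood at 0.267 to 1.05 CPM in all libraries. No source used here says whether the counting kept the strand, and without it the reads of both genes cannot be told apart where they overlap.

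With Epas1 up and Hif1a down, the make-up of the alpha subunit message shifted in myotubes. Epas1 was 1.40% ± 0.191 of the summed Epas1 and Hif1a TPM with siRNA 1 and 2.91% ± 0.202 with siRNA 2, against 0.579% ± 0.0756 in control myotubes (SD, n = 3 each). In myoblasts it was 0.0482% ± 0.00857 with siRNA 1 and 0.101% ± 0.0157 with siRNA 2, against 0.0397% ± 0.0143 in controls. Hif1a thus remained by far the larger part of this message in every library. The share follows from both levels, so it is no further result.

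**Figure D3:**
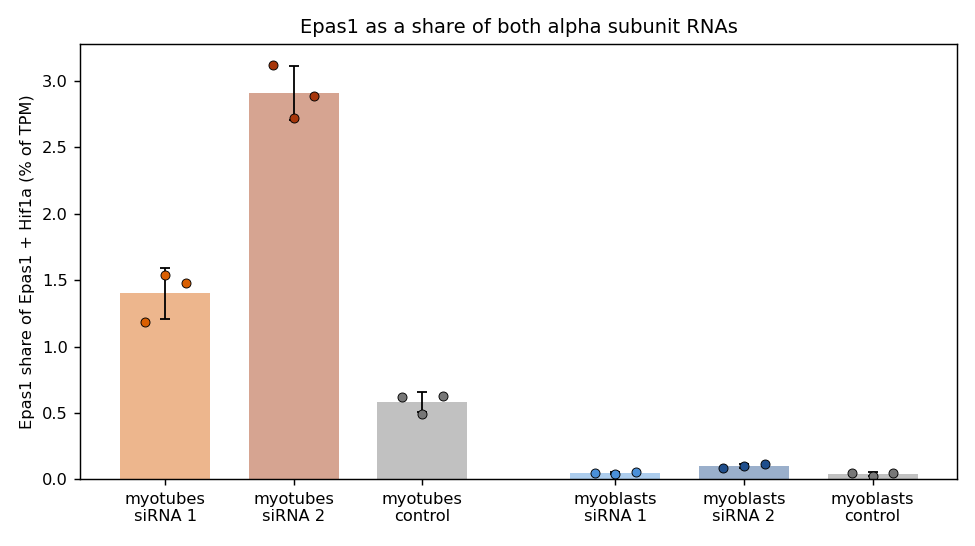
Epas1 as a percentage of the summed Epas1 and Hif1a TPM (vertical axis from 0), with bars at the group mean, error bars of 1 SD over 3 libraries and a point per library. The myotube groups stand at 1.40% (siRNA 1), 2.91% (siRNA 2) and 0.579% (control), and every myoblast library at 0.115% or less.

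Hif3a (ENSMUSG00000004328, chromosome 7, positions 17031507 to 17062427, minus strand) encodes HIF-3 alpha, whose short forms restrain the other alpha subunits. It was close to absent, with 0 to 3 counts in each library, and was not tested. Over the 3 libraries of a group it had 2 counts with siRNA 1 and 8 with siRNA 2, against 2 in control myotubes, and 1 with siRNA 1 and 0 with siRNA 2, against 1 in control myoblasts. A count of 0 over the 155.0 megareads of siRNA 2 myoblasts allows up to 0.0194 CPM (3 counts, counting error only). No library rose above 3 counts, so no fold is given.

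Arnt (ENSMUSG00000015522, chromosome 3, positions 95434388 to 95497240), the partner of every alpha subunit and of other proteins of its family, rose on differentiation and did not pass against control with either siRNA. Control myotubes read 102.3, 96.2 and 98.9 CPM, against 70.7, 61.9 and 66.2 CPM in control myoblasts, without overlap and with a log2 fold change of 0.57 (SE 0.05, adjusted p = 3.55e-10). Depleted myotubes read 100.7, 97.8 and 103.2 CPM with siRNA 1 and 94.9, 99.5 and 95.3 CPM with siRNA 2, both overlapping the controls, with log2 fold changes of 0.02 (1.96 SE interval -0.05 to 0.10) and -0.04 (-0.11 to 0.04). Myoblasts read 70.7, 69.8 and 65.3 CPM with siRNA 1 and 63.5, 57.8 and 57.7 CPM with siRNA 2, against the controls above. The siRNA 2 value was -0.14 (SE 0.05, adjusted p = 0.0549), near the threshold. It passed with DESeq2 (adjusted p = 0.0482), without the filter on low counts (0.0308) and with the start of the library name as a term (0.000205). Between the siRNAs in myoblasts, siRNA 2 was lower without overlap, at -0.19 (SE 0.05, adjusted p = 0.0164); this call, too, was lost without the library named SETD3 (adjusted p = 0.073) and on leaving out any of 3 others. A pseudogene, Gm42672, overlaps Arnt and stood at 0.0547 to 0.409 CPM.

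Egln1 (ENSMUSG00000031987, chromosome 8, positions 124908587 to 124949324, minus strand) encodes PHD2, the hydroxylase that sets HIF-1 alpha levels in oxygen. It rose in myoblasts with each siRNA. Myoblasts read 79.1, 81.9 and 77.7 CPM with siRNA 1 and 72.6, 76.8 and 75.0 CPM with siRNA 2, against 67.8, 67.3 and 67.4 CPM in controls, and all 6 depleted libraries lay above the controls. That is a fold of 1.18 with siRNA 1 (0.24 on the log2 scale, SE 0.03, adjusted p = 0.00042) and of 1.12 with siRNA 2 (0.16, SE 0.03, adjusted p = 0.00291). Within C14 the ratio was 0.25 with siRNA 1 and 0.10 with siRNA 2, and within D2 it was 0.21 and 0.17. The siRNA 2 call depended on the unit: on log2 of TPM plus 0.1 it was 0.12 (adjusted p = 0.0626, limma). The median over all genes on that scale was -0.04, against 0.00 with counts. Myotubes read 74.5, 73.2 and 74.1 CPM with siRNA 1 and 85.4, 70.7 and 71.8 CPM with siRNA 2, against 65.7, 69.1 and 69.8 CPM in controls. All 6 depleted libraries lay above the controls here as well, but neither siRNA passed, at 0.12 (adjusted p = 0.257) and 0.16 (adjusted p = 0.0984). The siRNA 2 value passed with the start of the library name as a term (0.19, adjusted p = 0.0157). The depletion effects of the stages did not differ past the threshold (-0.06, SE 0.06, adjusted p = 0.568). Control myotubes and control myoblasts overlapped, with a log2 difference of 0.01 (1.96 SE interval -0.09 to 0.11).

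Egln3 (ENSMUSG00000035105, chromosome 12, positions 54178981 to 54203860, minus strand) encodes PHD3, a hydroxylase that HIF itself induces. It rose on differentiation, to 117.9, 137.1 and 112.1 CPM in control myotubes, against 98.9, 93.1 and 96.6 CPM in control myoblasts, with no overlap (log2 fold change 0.34, SE 0.07, adjusted p = 0.000282). In the main test it passed against control with neither siRNA. Depleted myotubes read 112.1, 136.2 and 136.9 CPM with siRNA 1, which overlapped the controls, and 105.0, 108.9 and 104.8 CPM with siRNA 2, all below the controls, at 0.07 (SE 0.08, adjusted p = 0.605) and -0.20 (SE 0.08, adjusted p = 0.0861). The siRNA 2 value did pass under several alternatives: with DESeq2 (-0.19, adjusted p = 0.0458), on log2(TPM + 0.1) (-0.29, adjusted p = 0.0188, limma), with the replicate block (-0.20, adjusted p = 0.0389) and with the start of the library name as a term (-0.25, adjusted p = 0.000949). On log2(TPM + 0.1) the median over all genes was -0.10, against -0.01 with counts. Set against siRNA 1, siRNA 2 was lower (-0.27, SE 0.08, adjusted p = 0.0473), but the call was lost on leaving out any of 6 of the 9 libraries, with adjusted p up to 0.168 over all 9. Within C13 this ratio was -0.09 and within D1 -0.35. Depleted myoblasts ran from 88.4 to 95.8 CPM with siRNA 1 and from 90.1 to 95.5 CPM with siRNA 2, overlapping the controls, at -0.08 (adjusted p = 0.19) and -0.05 (adjusted p = 0.34).

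Vhl (ENSMUSG00000033933, chromosome 6, positions 113623959 to 113631633) encodes the part of the ubiquitin ligase that recognises hydroxylated alpha subunits, and is the von Hippel-Lindau tumour suppressor. It was a little higher in myotubes and fell there with siRNA 2. Myotubes read 22.0, 23.9 and 25.4 CPM with siRNA 1 and 22.0, 22.1 and 22.7 CPM with siRNA 2, against 25.3, 25.5 and 25.1 CPM in controls. The siRNA 2 libraries lay below the controls and the siRNA 1 libraries overlapped both. The log2 fold change was -0.18 (SE 0.05, adjusted p = 0.0135) with siRNA 2, with ratios of -0.19 within C13 and -0.19 within D1, and -0.09 (SE 0.05, adjusted p = 0.228) with siRNA 1. The siRNA 2 call was lost without the second siRNA 2 library (-0.16, adjusted p = 0.0739). Between the siRNAs the difference did not pass (-0.09, SE 0.05, adjusted p = 0.235). Myoblasts with siRNA 1, with siRNA 2 and with control siRNA read 20.2 to 22.3, 20.1 to 22.2 and 21.9 to 22.7 CPM and overlapped (-0.06 and -0.04, adjusted p = 0.446 and 0.618). Control myotubes, at 25.1 to 25.5 CPM, were above control myoblasts, with a log2 fold change of 0.18 (SE 0.05, adjusted p = 0.0036).

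Vegfa (ENSMUSG00000023951, chromosome 17, positions 46016993 to 46032369, minus strand) encodes vascular endothelial growth factor A, the signal by which muscle recruits capillaries. It was lower with siRNA 1 in both stages and not with siRNA 2. Myotubes read 173.0, 164.5 and 166.8 CPM with siRNA 1 and 213.9, 193.9 and 201.7 CPM with siRNA 2, against 189.4, 214.1 and 205.8 CPM in controls. Every siRNA 1 library was below every other myotube library, and siRNA 2 and controls had means of 203.2 and 203.1 CPM. The log2 fold change was -0.27 (SE 0.05, adjusted p = 0.0031) with siRNA 1 and 0.00 (1.96 SE interval -0.10 to 0.10) with siRNA 2, and siRNA 2 stood above siRNA 1 by 0.27 (SE 0.05, adjusted p = 0.00327).

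The myoblast values had the same shape. They were 135.8, 141.4 and 128.7 CPM with siRNA 1 and 151.6, 161.0 and 159.5 CPM with siRNA 2, against 158.2, 164.9 and 158.8 CPM in controls, and again every siRNA 1 library was below all others. The log2 fold change was -0.25 (SE 0.04, adjusted p = 0.000956) with siRNA 1 and -0.02 (1.96 SE interval -0.09 to 0.06) with siRNA 2, and siRNA 2 was above siRNA 1 by 0.23 (SE 0.04, adjusted p = 0.00108). Within C13 and D1 the siRNA 1 ratio was -0.19 and -0.37, and within C14 and D2 it was -0.19 and -0.33. Setd2 itself was at a log2 difference of -0.33 (SE 0.17, adjusted p = 0.247) for siRNA 2 against siRNA 1 in myotubes, where every siRNA 2 library was the lower, and of 0.13 (SE 0.10, adjusted p = 0.406) in myoblasts, where the libraries overlapped. On differentiation Vegfa rose, to 189.4 to 214.1 CPM in control myotubes, against 158.2 to 164.9 CPM in control myoblasts (log2 fold change 0.33, SE 0.05, adjusted p = 2.33e-06).

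The transcripts that make up each gene's level are a measure that the choice of genes did not use. Of the 8 genes, Hif1a, Arnt, Vhl and Vegfa had more than 1 transcript in the tables and enough counts, and 9 of their transcripts held at least 5% of their gene's estimated counts in some group. Their shares were compared in 3 ways, both siRNAs together against control in each stage and control myotubes against control myoblasts, which makes 27 two-sided exact permutation tests. None had an adjusted p under 0.05 (the lowest was 0.3), and 2 had an unadjusted p under 0.05. No p can go below 0.1 with 3 libraries against 3, or below 0.0238 with 6 against 3. Adjusted over 27 tests, a share could pass only if most depletion tests stood at that floor together. The tests therefore cannot show that shares stayed the same. The leading transcript was the same in every group. Hif1a-201 held 73.8% to 76.6% of Hif1a in control myotubes, against 78.7% to 80.1% in control myoblasts.

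Hif1a-202, whose first exon lies upstream of the main one (it starts at position 73901375, against 73907904 for Hif1a-201), held most of the remainder. Its share was 24.4% ± 1.45 in control myotubes, against 19.9% ± 0.671 in control myoblasts, without overlap (exact p = 0.1, the smallest possible). Vegfa-211, which starts inside the span of Vegfa-202, held 28.7% ± 1.44 of Vegfa in control myotubes, against 37.2% ± 2.00 in control myoblasts, also without overlap (exact p = 0.1). With depletion, Arnt-202, a long form, held 56.7% ± 2.72 of Arnt in the 6 depleted myoblast libraries, against 61.7% ± 1.30 in controls (exact p = 0.0238, the smallest that 6 against 3 allow; adjusted p = 0.3). Arnt-203, a shorter form, held 25.6% ± 1.79 in depleted myotubes, against 23.1% ± 0.316 in controls (exact p = 0.0238, adjusted p = 0.3). Shares of estimated counts depend on how the quantifier split reads between overlapping transcripts.

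**Figure D4:**
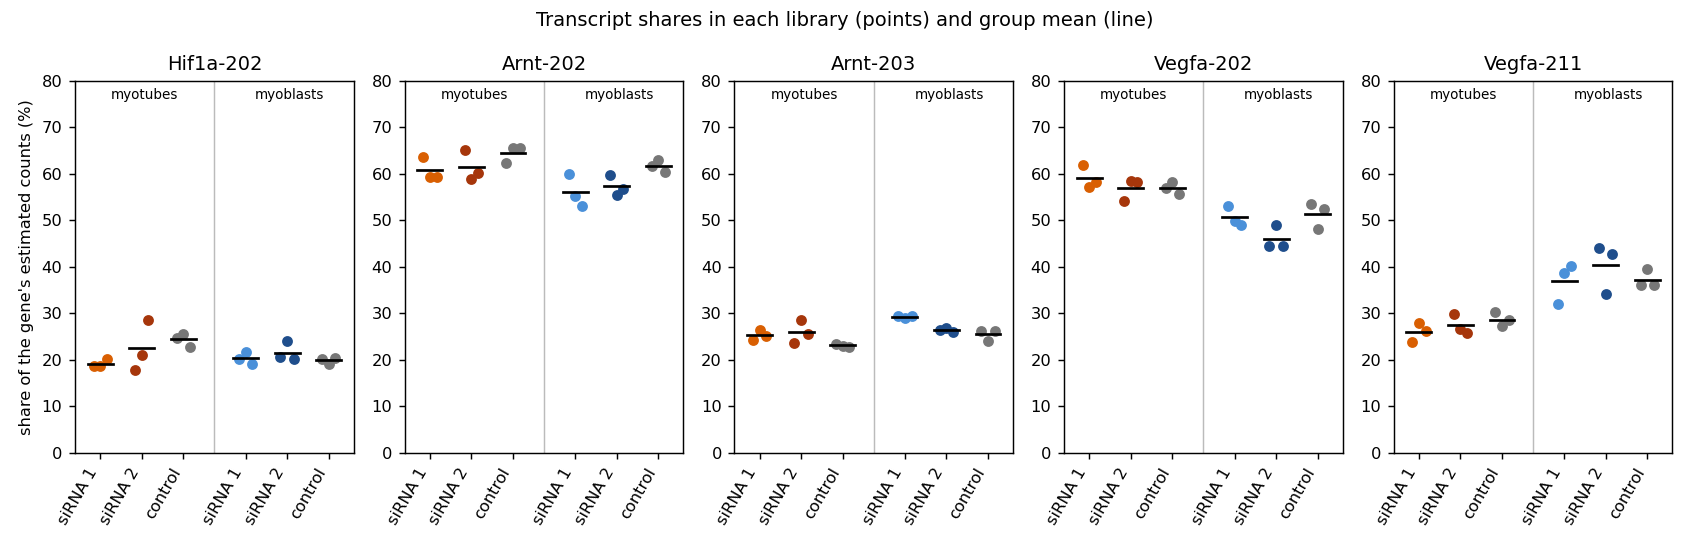
Share of a gene's estimated counts held by each of 5 transcripts (vertical axis in %, from 0), with a point per library and a line at the mean of 3 libraries, myotubes left and myoblasts right in each panel. Hif1a-202 stands at 24.4% in control myotubes, against 19.9% in control myoblasts, and Vegfa-211 at 28.7%, against 37.2%.

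Around the 8 genes, 99 other genes of the pathway were grouped in 7 lists by role; 94 of them were tested in myoblasts and 93 in myotubes. On differentiation 34 of 94 rose and 45 fell (36.2% and 47.9%, against 39.4% and 38.1% of all genes), with a median log2 fold change of -0.11, against 0.00 over all genes. In myotubes 17 of 93 rose and 15 fell with siRNA 1 (18.3% and 16.1%, against 11.0% and 9.57% of all genes; median 0.00, all genes 0.00). With siRNA 2 there, 25 rose and 13 fell (26.9% and 14%, against 15.8% and 16.4% of all genes; median 0.09, all genes -0.01). In myoblasts 16 of 94 rose and 13 fell with siRNA 1 (17.0% and 13.8%, against 11.6% and 8.44% of all genes; median 0.01, all genes 0.01). With siRNA 2 there, 26 rose and 21 fell (27.7% and 22.3%, against 17.1% and 16.5% of all genes; median 0.01, all genes 0.00). In the same direction with each siRNA, 11 rose and 9 fell in myotubes (11.8% and 9.68%, against 7.14% and 6.27% of all genes), and 11 rose and 4 fell in myoblasts (11.7% and 4.26%, against 7.69% and 4.25%). The siRNA 1 count in myoblasts is sensitive to single libraries: it came to 17 to 35 genes when a library was left out, with 18 without the first siRNA 1 library, 17 without the second, 19 without the second control and 18 without the third control.

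Among partners and hydroxylases, Arntl, a clock factor of the ARNT family, fell in myotubes with each siRNA, with a log2 fold change of -0.51 (SE 0.07, adjusted p = 0.000344) for siRNA 1 and -0.31 (SE 0.07, adjusted p = 0.00396) for siRNA 2. It averaged 13.6 ± 1.52 and 15.6 ± 0.692 CPM, against 19.4 ± 0.611 CPM in control myotubes. Hif1an, the asparagine hydroxylase that blocks HIF's contact with coactivators, rose strongly on differentiation, with 184.3 ± 7.16 CPM in control myotubes and 63.6 ± 0.870 CPM in control myoblasts (log2 fold change 1.53, SE 0.05, adjusted p = 2.84e-16). Egln2, the third prolyl hydroxylase, rose by 0.13 (SE 0.04, adjusted p = 0.00712). No hydroxylase outside the 8 genes passed with each siRNA in a stage. Of the 4 other subunits of the VHL ligase, the elongins Eloc and Elob rose on differentiation (0.27 and 0.21), and the RING subunit Rbx1 fell (-0.10, adjusted p = 0.0199). Elob also rose in myotubes with each siRNA (0.12 and 0.12, adjusted p = 0.0411 and 0.0307).

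Among the 15 other regulators tested, 6 rose and 7 fell on differentiation, where 39.4% and 38.1% of all genes did. The deubiquitinase Usp20, which stabilises HIF-1 alpha, rose (1.58, adjusted p = 2.11e-17), as did the growth kinase Mtor (0.78, adjusted p = 2.81e-14), and the chaperone genes Hsp90aa1 and Hsp90ab1 fell (-1.43 and -0.72, adjusted p = 8.96e-17 and 5.04e-13). In myotubes 1 regulator rose and 3 fell with each siRNA (6.67% and 20.0%, against 7.14% and 6.27% of all genes). Cited2, which competes with HIF for coactivators and is itself induced by it, averaged 172.2 ± 10.02 CPM with siRNA 1 and 137.8 ± 5.17 CPM with siRNA 2, against 214.5 ± 27.9 CPM in controls (-0.32 and -0.64, adjusted p = 0.0145 and 0.000176). Hsp90aa1, a chaperone of HIF-1 alpha, fell as well (-0.23 and -0.28, adjusted p = 0.00408 and 0.000646), as did the chromatin reader Zmynd8 (-0.22 and -0.31). Usp20 rose by 0.18 and 0.12 (adjusted p = 0.00899 and 0.0497). In myoblasts Mtor rose with each siRNA (0.13 and 0.12, adjusted p = 0.0088 and 0.00588) and the deacetylase Sirt1 fell (-0.16 and -0.51, adjusted p = 0.0193 and 2.15e-06).

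Of the 50 tested HIF targets outside the 8 genes, 21 rose and 21 fell on differentiation, which is 42.0% each way, against 39.4% and 38.1% of all genes. The glucose transporter Slc2a1 fell to 60.5 ± 2.27 CPM in control myotubes, against 255.8 ± 6.27 CPM in control myoblasts (-2.09, adjusted p = 2.88e-16), and Angptl4 and the cyclin Ccnd1 fell too (-1.71 and -3.56). Bhlhe40, a repressor of the clock, rose to 208.6 ± 3.03 CPM in control myotubes, against 56.0 ± 5.05 CPM in control myoblasts (1.89, adjusted p = 6e-17), and Narf rose by 1.87. Car9 and Adm, classical hypoxia markers, also rose (2.30 and 1.66, adjusted p = 0.00797 and 0.0352) but were scarce, at 2.67 ± 1.20 and 1.07 ± 0.207 CPM in control myotubes, against 0.526 ± 0.193 and 0.332 ± 0.0597 CPM in control myoblasts.

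With depletion, 5 of the 50 targets rose and 3 fell in myotubes with each siRNA, where 7.14% and 6.27% of all genes did. The glycolytic enzyme Aldoa averaged 1825 ± 41.1 CPM with siRNA 1 and 2169 ± 116.6 CPM with siRNA 2, against 1451 ± 76.0 CPM in controls (0.33 and 0.58, adjusted p = 0.00134 and 1.42e-05), and Tpi1 averaged 670.7 ± 4.52 and 810.6 ± 47.9 CPM, against 571.0 ± 14.3 CPM (0.23 and 0.51, adjusted p = 0.0045 and 1.29e-05). Glycolytic genes have near-identical copies in the genome that can share reads, so these values are uncertain. The matrix enzyme Lox, which crosslinks collagen, averaged 379.0 ± 23.9 and 361.6 ± 28.4 CPM, against 507.4 ± 24.0 CPM in controls (-0.42 and -0.49, adjusted p = 0.000725 and 0.000133), and Ndrg1 and Ero1l fell as well (-0.20 and -0.31; -0.23 and -0.22). The collagen hydroxylase P4ha2 (0.17 and 0.52) and Narf (0.17 and 0.52) rose. In myoblasts 7 of the 50 targets rose and 1 fell with each siRNA, where 7.69% and 4.25% of all genes did. Among those that rose was the collagen-modifying Plod2, at 81.4 ± 4.60 and 88.7 ± 3.89 CPM, against 66.8 ± 3.55 CPM in controls (0.28 and 0.42, adjusted p = 0.00112 and 2.34e-05). The collagen hydroxylase P4ha1 (0.22 and 0.26) and the haem oxygenase Hmox1 (0.26 and 0.39) rose too, and the histone demethylase Kdm4b fell (-0.21 and -0.39, adjusted p = 0.024 and 0.00025). With siRNA 2 in myotubes 12 of the 50 targets rose and 4 fell (24.0% and 8%, against 15.8% and 16.4% of all genes), and set against siRNA 1, 13 were higher and 1 lower (26.0% and 2%, against 7.76% and 9.36%). The list's median was 0.11 with siRNA 2 in myotubes and 0.13 for siRNA 2 against siRNA 1, while the all-gene medians were -0.01 and 0.00. In myoblasts, siRNA 2 set against siRNA 1 had 12 targets higher and 12 lower (24.0% each, against 12.1% and 14.3% of all genes). With siRNA 2 against control there, 17 rose and 11 fell (34.0% and 22.0%, against 17.1% and 16.5%). With siRNA 1 in myotubes, 6 of the 50 rose and 6 fell, where 11.0% and 9.57% of all genes did. The list's median there was 0.01, and in myoblasts it was 0.05 with each siRNA.

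Beside Vegfa, all 8 tested genes of its family and receptors fell on differentiation, where 38.1% of all genes did and Vegfa itself rose. The receptor Flt1 averaged 2.33 ± 0.262 CPM in control myotubes and 16.3 ± 1.29 CPM in control myoblasts (-2.83, SE 0.10, adjusted p = 1.32e-15), and Nrp2 (-1.07) and Vegfc (-0.94) fell too. Kdr, the main signalling receptor, was at 0.0348 ± 0.0308 and 0.353 ± 0.123 CPM (-3.16, SE 0.55, adjusted p = 4.14e-05). With each siRNA in myotubes, Vegfb rose (25.3 ± 0.884 and 27.7 ± 2.18 CPM, against 18.8 ± 1.25 CPM in controls; 0.43 and 0.56, adjusted p = 0.00126 and 9.03e-05), as did the co-receptor Nrp2 (0.16 and 0.20, adjusted p = 0.00626 and 0.00103). In myoblasts Vegfc fell with each siRNA (-0.45 and -0.48, adjusted p = 0.0229 and 0.00962).

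Of 12 genes of stretch and growth signalling that are known to act on Vegfa, Wwtr1, which encodes the mechanically regulated coactivator TAZ, rose in myoblasts to 174.1 ± 1.92 CPM with siRNA 1 and 188.7 ± 0.436 CPM with siRNA 2, against 132.6 ± 5.93 CPM in controls (0.39 and 0.52, adjusted p = 9.55e-06 and 3.3e-07). Sp1, a factor of the Vegfa promoter, rose less (0.14 and 0.26), and the estrogen-related receptor Esrra, which can induce Vegfa with its coactivator PGC-1 alpha, fell (-0.28 and -0.60, adjusted p = 0.00323 and 4.77e-06). Prkaa2, the AMP-activated kinase subunit of muscle, rose in both stages with each siRNA, in myotubes to 60.8 ± 1.38 and 90.1 ± 0.690 CPM, against 45.1 ± 3.29 CPM in controls (0.43 and 1.00, adjusted p = 0.000105 and 1.44e-07), and in myoblasts by 0.36 and 0.35. Prkaa1 rose slightly in myotubes (0.11 and 0.12), where Myc (-0.54 and -0.32) and Trp53 (-0.22 and -0.18) fell with each siRNA. On differentiation Prkaa2, Ppargc1a and Wwtr1 rose by 3.85, 1.57 and 1.45, and Myc (-1.39) and Trp53 (-1.24) fell.

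**Figure D5:**
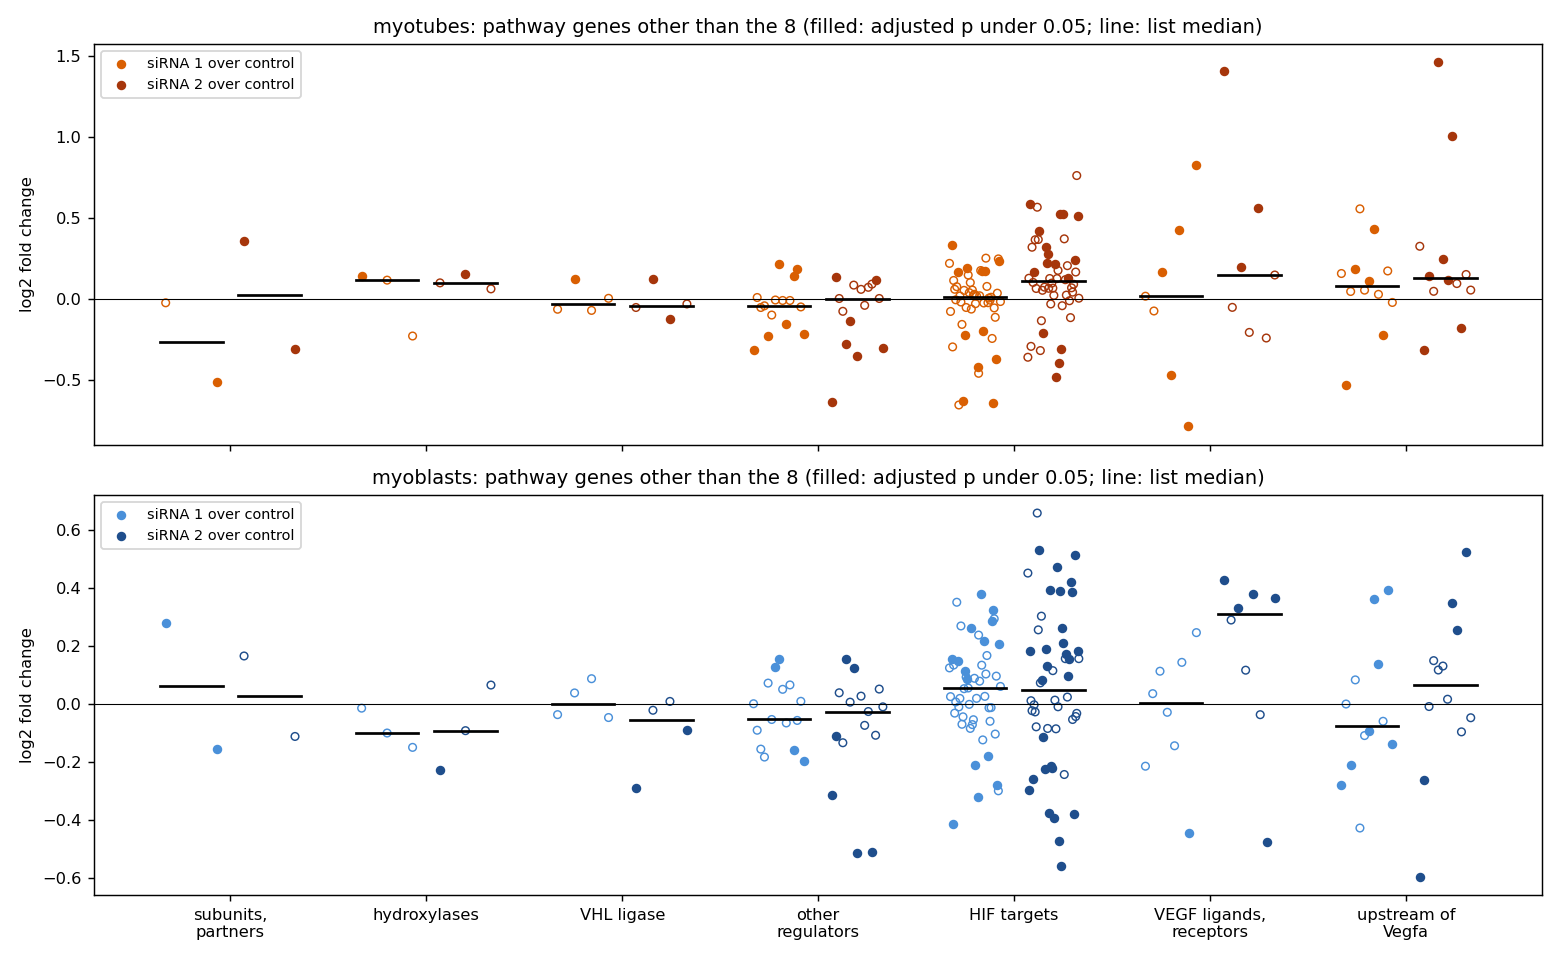
Log2 fold change (vertical axis, scaled separately for each stage) of each tested pathway gene other than the 8, in 7 lists, for siRNA 1 and siRNA 2 over control in myotubes (top) and myoblasts (bottom); filled points have an adjusted p under 0.05 and lines are list medians. Filled points lie on both sides of 0 in the HIF target list in each stage, with 25 and 13 genes over all lists up and down with siRNA 2 in myotubes.

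For the 3 genes that moved the same way with each siRNA in a stage, the genes of most similar pattern were found by Pearson's r of log2 CPM over the 18 libraries after each stage's mean was removed. For Epas1 these were Ubash3b (r = 0.949), a phosphatase of receptor signalling, Serpine2 (r = 0.94), a protease inhibitor, and Mdh1 (r = 0.931), the cytosolic malate dehydrogenase. For Hif1a they were Hid1 (r = 0.938), Pycr1 (r = 0.901), an enzyme of proline synthesis, and Prc1 (r = 0.898), a protein of the mitotic spindle midzone. For Egln1 they were Ankrd28 (r = 0.871), Fastk (r = 0.856) and B3gnt9 (r = 0.854). The values share their libraries, groups and depth, are the highest of all tested genes, and describe likeness of pattern only.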

How the data were processed

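The authors deposited 2 tables, 1 for myoblasts and 1 for myotubes, with estimated counts and TPM for 115088 transcripts; per the file headers, the tables cover 18 libraries. No source used here names the quantifier behind the deposited estimated counts. TPM values, as deposited, are scaled for transcript length within each library, and the tables also give transcript lengths. The submitters' processing notes name mm10 and DESeq2 without their roles. Transcripts were summed to 47311 genes through a mouse annotation of mm10 that matched 114200 of them; the 888 without a match held 0.16% to 0.24% of a library's counts. Every column of library values belonged to a sample of the series.

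Estimated counts were rounded, filtered with edgeR's filterByExpr (minimum count 10) and scaled by TMM. Where the symbol Aldoa stood for more than 1 gene identifier, the one with more counts was used. Each stage had its own fit of all its libraries in edgeR 4.0.16 in R 4.3.3 (quasi-likelihood test, Benjamini-Hochberg adjustment, threshold 0.05), with 15586 genes in 9 myoblast and 16097 in 9 myotube libraries. Differentiation and the difference between stages came from a fit of all 18 libraries with 16930 genes. The fit was tested on simulated counts with known changes. Transcript shares were compared by exact permutation tests (scipy 1.17.1), for transcripts with at least 5% of a gene's counts in some group. Alternatives were DESeq2 1.42.0, limma 3.58.1 on log2(TPM + 0.1) and log2(TPM + 1), RLE scaling, no filter, unrounded counts, a replicate block, the start of the library name as a term, and each library left out.

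The main fits did not pair libraries by replicate number. Deviations of same-numbered libraries from their group means correlated at -0.151 to 0.303 in myoblasts and -0.101 to 0.142 in myotubes. For different numbers the correlations were -0.374 to 0.242 and -0.2 to 0.137. Over 0.1 were 6 of 9 same-numbered and 5 of 18 other pairs in myoblasts, and 2 of 9 and 3 of 18 in myotubes. For libraries with the same start of the name the correlations were 0.034 to 0.303 and -0.028 to 0.142, against -0.374 to -0.054 and -0.2 to 0.007 for different starts. The 8 genes, the pathway lists and the tests were chosen with earlier results of these data known. Named pathway genes were, per list and direction, at most 4 that passed the same way with each siRNA in a stage by mean absolute log2 fold change, and at most 4 on differentiation by absolute log2 fold change; 1 gene this rule names is not reported here.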

Additional observations from a re-analysis of the deposited data

Results flagged for a closer look

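The effect of depletion, taken as the mean of both siRNAs, differed between myotubes and myoblasts past the threshold for Hif1a among the 8 genes and for 21 of the other genes named above (edgeR's quasi-likelihood test of the difference in the fit of 18 libraries, adjusted p 3.16e-06 to 0.0371). Of all genes, 23.4% passed this test (10.6% with a value above 0 and 12.8% below). Each of the 21 had passed with each siRNA in a stage, a ground for being named, and those effects enter this difference. The count is therefore no independent result. Values are log2 effects in myotubes minus log2 effects in myoblasts. For Hif1a the difference was -0.29. It was also below 0 for Plod2 (-0.53), Hsp90aa1 (-0.37), Cited2 (-0.32), Hmox1 (-0.30), Wwtr1 (-0.30), Arntl (-0.27), P4ha1 (-0.27), Lox (-0.25), Ero1l (-0.22), Zmynd8 (-0.16) and Sp1 (-0.14). It was above 0 for Esrra (0.68), Sirt1 (0.45), Vegfb (0.44), Prkaa2 (0.36), Kdm4b (0.30), Aldoa (0.29), Usp20 (0.23), P4ha2 (0.23), Tpi1 (0.18) and Prkaa1 (0.15). Groups of 3 libraries were not searched for outliers.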

How the results depend on the processing

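Of the single-gene values, 970 kept their direction and side of the threshold under the alternatives, 33 passed only under the alternative and 27 no longer passed. Another 45, none past the threshold in either fit, changed sign, among them Arnt with siRNA 1 in myoblasts (0.05, and -0.00286 to 0.08 with a library left out) and Vegfa with siRNA 2 in myoblasts (-0.02, and -0.04 to 0.01); no called value changed sign. DESeq2 gave no adjusted p for Epas1 in myoblasts. Of the 8 genes, siRNA 2 myoblasts called 2 with estimated counts (with DESeq2 also 2, Arnt and Egln1), 1 (Epas1) on log2(TPM + 0.1) and 0 on log2(TPM + 1). For siRNA 2 against siRNA 1 in myoblasts the 3 calls became 1 on both TPM scales. In siRNA 2 myotubes the 3 became 5 on both TPM scales and 5 with the start of the library name as a term, and the difference between stages called 2 on both TPM scales and 1 with counts; the cause was not tested. The pathway lists in siRNA 1 myoblasts gave 29 calls, 44 with the replicate block and 47 with the start of the name. With a library left out, the 8 genes gave 2 to 4 calls in siRNA 1 myoblasts, 1 to 3 in siRNA 2 myoblasts, 1 to 4 between the siRNAs, 3 to 4 in siRNA 1 myotubes, 3 to 4 in siRNA 2 myotubes, 2 to 3 between the siRNAs, 6 on differentiation and 1 to 2 between stages. The lists gave 17 to 35, 39 to 50, 22 to 38 and 29 to 44 calls for siRNA 1 and siRNA 2 in myoblasts and then in myotubes, 77 to 80 on differentiation and 29 to 38 between stages. Transcript shares gave 0 throughout, but with a library left out the smallest possible p is higher still, so nothing is read from that. With the replicate block the 8 genes gave 3, 3 and 4 calls in myoblasts and 3, 4 and 3 in myotubes (siRNA 1, siRNA 2, and between them), 5 on differentiation, where Vhl was lost (0.13, adjusted p = 0.0619), and 1 between stages. Without the library named SETD3, siRNA 2 myoblasts called Egln1 of the 8 genes, and Vegfa between the siRNAs.

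Over all genes, calls in siRNA 1 myoblasts were 3122, against 5029 with the start of the name and 1959 to 2075 without siRNA 1 library 1 or 2 or control 2 or 3. Between the siRNAs in myoblasts 4103 became 6263 with the start of the name. In myotubes, 3306 calls with siRNA 1 became 2156 and 2042 without its libraries 2 and 3. The 2755 between the siRNAs became 1814 and 1762 without those, and 1817 without the second siRNA 2 library. On log2(TPM + 0.1) the share of calls that were higher was 27.7% with siRNA 1 and 36.6% with siRNA 2 in myoblasts, against 57.9% and 50.9% with counts, and 31.1% and 25.5% in myotubes, against 53.4% and 49.1%; between the siRNAs in myotubes it was 33.7%, against 45.3%. TPM values were not scaled further between libraries. On log2(TPM + 0.1) the all-gene median was -0.06 with siRNA 1 and -0.04 with siRNA 2 in myoblasts, and -0.06 and -0.10 in myotubes. With counts these medians were 0.01 and 0.00, and 0.00 and -0.01. Depth limits Epas1 in myoblasts and Hif3a in all groups.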
